A study of Bos taurus with 57 samples.

Results

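The arcuate nucleus (ARC) libraries of a feeding study in male Holstein Friesian calves are described here, with the low plane of nutrition compared with the high plane. They were chosen by their tissue label, and are 20 of 57 libraries in the series, 10 on each plane. The remaining libraries are of the anterior pituitary, 9 on the high and 10 on the low plane, and of the testes, 10 on the high and 8 on the low plane. The labels give a growth rate of 1.08 kg/day for the high plane and 0.5 kg/day for the low plane, while the design text of the series names 1.2 kg/day as the aim for the high plane. All calves were euthanized at 126 days of age. Each library was made from the tissue of 1 calf. No untreated group was kept, so each plane is read against the other.

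The arcuate nucleus lies at the base of the hypothalamus beside the third ventricle. Its neurons sense signals of energy reserve such as leptin and insulin, release peptides that govern appetite, and act on the neurons that secrete gonadotropin releasing hormone. The comparison addresses whether early feeding alters gene expression at this uppermost level of the reproductive axis. The tissue was taken as small triangular pieces after the brain had been lifted out with the pituitary stalk cut, so that the pieces hold the nucleus with adjoining tissue. In such bulk samples fewer cells of a type and less RNA per cell cannot be told apart. Genes are given by their Ensembl identifiers, since the tables used here do not pair these with symbols, and the defining markers of arcuate neurons could therefore not be looked up by name.

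Library totals ran from 898979 to 32009433 reads on genes. The high plane averaged 17607236 ± 8763236 reads (SD, n = 10). The low plane averaged 15031416 ± 5268745 reads (SD, n = 10), a difference within the spread of the libraries (2-sided permutation test with 100000 resamples, p = 0.45, and 0.75 after Benjamini-Hochberg adjustment over 5 such tests). The shallowest library was C22 of the high plane, with 898979 reads and 14809 genes with at least 1 read. The other 19 libraries had 15693 to 19401 genes. On multidimensional scaling of the 500 leading genes, dimension 1 took 50.2% of the variance and dimension 2 took 11.5%.

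On dimension 1, 2 libraries of the low plane stood apart, C6 at 5.69 and C33 at 4.18, while the remaining 18 lay between -1.05 and 0.56. Library C6 also had the lowest TMM factor, 0.71, and the largest share of reads in its 10 most abundant genes, 23.3%. Over the tested genes C6 was the highest library for 29.8% and the lowest for 40.6%. On dimension 2 the shallow library C22 stood apart at 2.99. The difference between planes was within the spread of the libraries on dimension 1 (permutation test, p = 0.27) and on dimension 2 (p = 0.56). On dimension 1 the difference in means rests largely on C6 and C33, so the test says little of the other 18 libraries. The medians there were -0.71 on the high and -0.60 on the low plane. All 20 libraries were kept, and results that rest on C6, C33, C22 or on libraries C8 and C44, described next, are given with and without them.

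**Figure D1:**
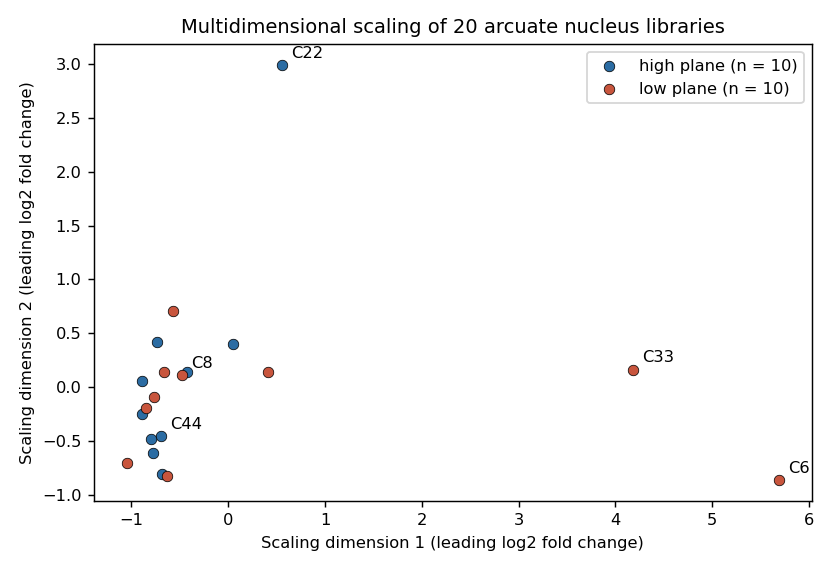
Multidimensional scaling of the 20 arcuate nucleus libraries, with dimension 1 on the x axis and dimension 2 on the y axis, both as leading log2 fold change. Each point is 1 library, blue for the high and red for the low plane. Libraries C33 and C6 lie at 4.18 and 5.69 on dimension 1 and C22 at 2.99 on dimension 2.

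What the pieces contained was checked with genes found from the 3 tissues themselves. For each tissue the 50 genes with the largest ratio of median CPM (reads per 1000000 reads on genes) were taken. The ratio was of ARC over pituitary, of pituitary over ARC, and of testes over the higher of the other tissues. These ratios chose the genes and are given as a description. The arcuate-enriched genes were 186.1- to 1060-fold higher in ARC than in pituitary. An example is ENSBTAG00000022890, with a median of 7430 CPM in ARC, 7.31 CPM in pituitary and 6.52 CPM in testes.

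All 20 ARC libraries carried the arcuate-enriched genes. The genes were chosen on the medians of these same libraries over pituitary, so their level does not test the labels. Summed over the 50 arcuate-enriched genes, the level was 20197 to 51082 CPM on the high plane (median 38062) and 17250 to 49973 CPM on the low plane (median 31900). In the pituitary libraries the same sum was 29.63 to 126.3 CPM, and in the testes libraries 127.2 to 982.5 CPM. Mean sums for the high plane were 37565 ± 9656 CPM (SD, n = 10). Those for the low plane were 31654 ± 9799 CPM (SD, n = 10), so that the planes overlapped over most of their range. The coefficient of variation was 25.7% on the high plane and 31% on the low plane.

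Within this set the libraries differed in how evenly the genes were held. In C6 the median gene stood at 26.5% of its ARC median, although the sum, 26114 CPM, lay inside the range of the others. A single gene gave 40.8% of that sum. In C33 the median gene stood at 60.5%, in C8 at 64.1% and in C22 at 71.5%. In the remaining 16 libraries it stood at 83.6% to 122%.

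The pituitary-enriched genes were at a low level in most ARC libraries. Their sum was 90.1 to 606.3 CPM on the high plane (median 164.3) and 106.3 to 2295 CPM on the low plane (median 371.1), against 80830 to 368600 CPM in the pituitary libraries. The set was chosen on pituitary over ARC alone, so a sum in testes is no floor for it. The testes libraries, which hold no pituitary tissue by their label, gave 77.86 to 1523 CPM. Their medians were 182.8 CPM on the high and 396.7 CPM on the low plane. Of 20 ARC libraries 19 did not pass the upper value, which was that of testes library B49. The exception was C8 of the low plane at 2295 CPM, from 34724 reads (95% Wilson interval 2271 to 2320 CPM, which covers counting error only).

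Library C8 differed from the other libraries with a raised sum in the genes that made it up. The pair with the highest ratio were ENSBTAG00000015274, with a median of 182000 CPM in pituitary, 79.5 CPM in ARC and 98.6 CPM in testes, and ENSBTAG00000017220. In C8 these 2 genes were at 0.0206% and 0.0442% of the pituitary median, inside the range of the other 19 libraries. The gene with rank 3 by ratio was at 16.7% there, and the other 47 genes had a median of 15.1%. The level depends on how many genes are taken, since the median gene of C8 stood at 14.7% of its pituitary median over all 50 genes and at 4.1% over the 20 with the highest ratio. In the other 19 libraries the median of those 47 genes was 0 to 1.1%. C43, C24 and C55 of the low plane had sums of 1216, 1015 and 1061 CPM, and in them the pair stood at 0.309% to 0.425% of the pituitary median, above the level in every library of the high plane, and the 47 genes at 0.435% to 0.669%. C8 also had the lowest arcuate-enriched sum of the 20 libraries. How these genes came to be counted in C8 was not tested.

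The testes-enriched genes were nearly silent in 18 libraries, with sums of 14.44 to 51.7 CPM, close to the pituitary libraries at 16.08 to 61.33 CPM. Library C44 of the high plane had 2942 CPM from 89926 reads (95% Wilson interval 2923 to 2961 CPM), where the testes libraries had 9012 to 28580 CPM. All 50 genes were detected in C44, 45 of them above 10% of their testes median, and the median gene stood at 26.2%. Its arcuate-enriched genes were at 89.8% of their ARC median. How testes-enriched genes came to be counted in this library was not tested, and diet values that C44 or C8 leads are given below with and without it. The shallow library C22 had 269.2 CPM from 242 reads (95% Wilson interval 237.4 to 305.3 CPM), with 27 of the 50 genes detected.

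**Figure D2:**
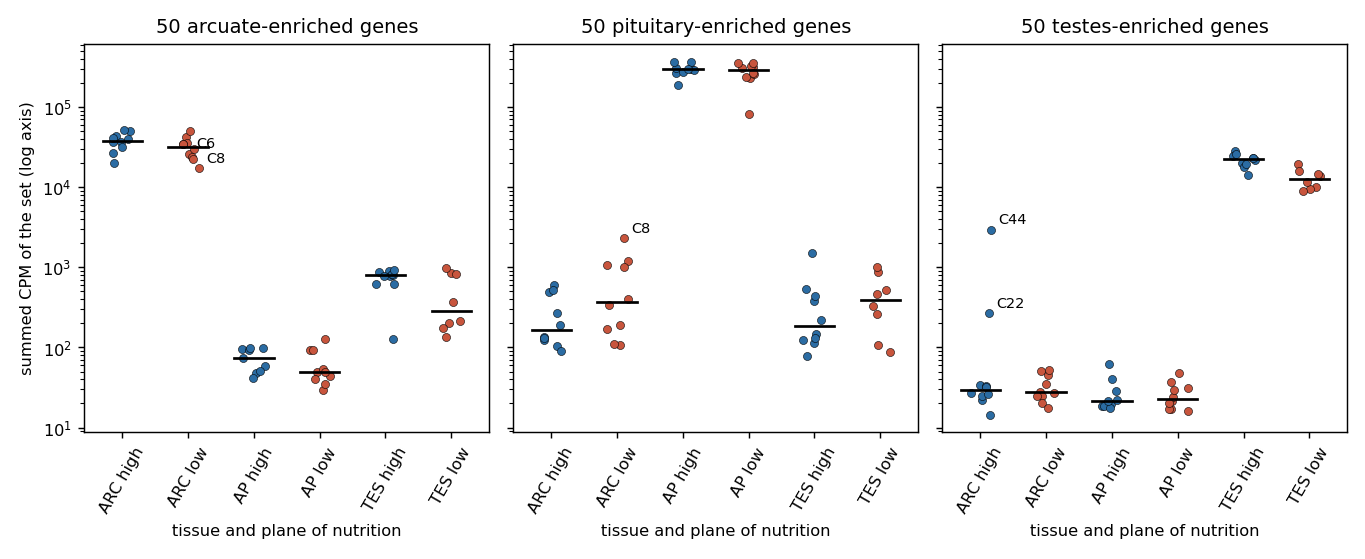
Summed CPM, on a log axis, of the 50 arcuate-enriched, pituitary-enriched and testes-enriched genes in each library, by tissue (ARC, arcuate nucleus, AP, anterior pituitary, TES, testes) and plane. Points are libraries, blue for the high and red for the low plane, and lines are group medians. Among the ARC libraries C8 stands highest for the pituitary set at 2295 CPM, and C44 for the testes set at 2942 CPM.

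Between planes, no differentially expressed genes (DEG) were called in the ARC. Of 24616 genes listed, 14757 passed the filter on low counts and were tested by edgeR's quasi-likelihood test. The number called at a false discovery rate (FDR) of 0.05 was 0 (0% of genes tested), and the smallest FDR was 0.48. Before adjustment 1464 genes, or 9.92%, had a p below 0.05. Of these, 1210 were higher on the low plane, 8.2% of genes tested, and 254 were lower, 1.72%. With edgeR's exact test 1 gene was called and with DESeq2 1 gene, 0.00678% of genes tested in each, and it was the same gene, described below.

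The excess of genes leaning upward on the low plane moved with C6 and C33. These were the 2 highest libraries for 995 of the 1210 genes, 82.2%, against 26.3% of all genes tested. With C6 left out the number higher on the low plane was 477, with C33 left out 408, and with both left out 266, beside 309 that were lower. Leaving out C41 of the low plane gave 1932 higher and 395 lower. Leaving out C60 of the high plane gave 163 lower. No gene was called at an FDR of 0.05 in any of the 20 fits that left out 1 library.

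**Figure D3:**
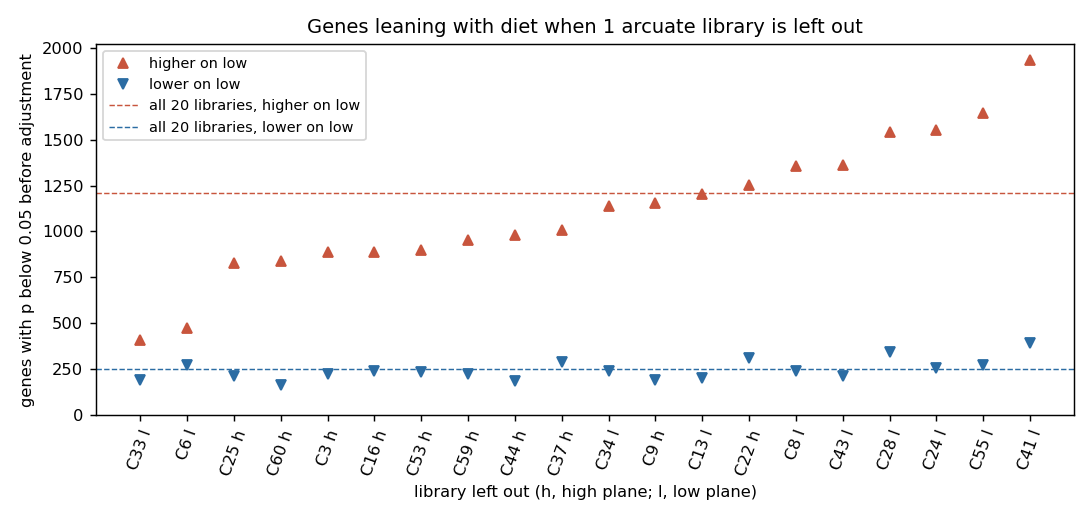
Number of genes with a quasi-likelihood p below 0.05 before adjustment when 1 library is left out, ordered by the number higher on the low plane. Triangles pointing up are genes higher on the low plane, those pointing down are genes lower, and dashed lines are the numbers with all 20 libraries, 1210 and 254. The number higher on the low plane is 408 without C33 and 1932 without C41.

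The sizes of change that the data leave room for were read from the 95% interval of each gene's log2 fold change of low over high, and a size was taken as excluded when the whole interval lay inside it. The median interval reached 0.47 on the log2 scale either side of the estimate, which is 1.38-fold. It lay wholly within 1.5-fold for 30.3% of genes, within 2-fold for 74% and within 4-fold for 98.9%. Changes of 4-fold or more were thus excluded, gene by gene, for 14588 of 14757 genes.

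Precision followed abundance. Among the 2023 genes with a mean of 100 CPM and above the median interval reached 0.39 (1.31-fold), and it lay within 1.5-fold for 41.2% and within 2-fold for 86.1%. Among the 8423 genes of 10 to 100 CPM it reached 0.42, with 36% within 1.5-fold and 80% within 2-fold. For the 3931 genes of 1 to 10 CPM it reached 0.62, with 15.2% within 1.5-fold and 58.2% within 2-fold. For the 380 genes below 1 CPM it reached 0.74, and 1.84% lay within 1.5-fold and 41.6% within 2-fold.

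These intervals hold for 1 gene at a time. When they were widened so that all 14757 hold together at 95% (Bonferroni), 12.9% of genes lay within 2-fold and 64.2% within 4-fold. Among genes of 100 CPM and above the joint intervals lay within 2-fold for 22% and within 4-fold for 80.8%.

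The width of the intervals moved with C6 and C33. Without them, at 10 libraries on the high and 8 on the low plane, the intervals of the same genes lay within 1.5-fold for 74.6% and within 2-fold for 92.2%. For genes of 100 CPM and above these shares were 91.5% and 98.7%, and for genes of 10 to 100 CPM 87.8% and 97.3%. For genes of 1 to 10 CPM 80.8% lay within 2-fold. The median SD of log2 CPM within planes was 0.50 with all libraries and 0.29 without the pair.

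**Figure D4:**
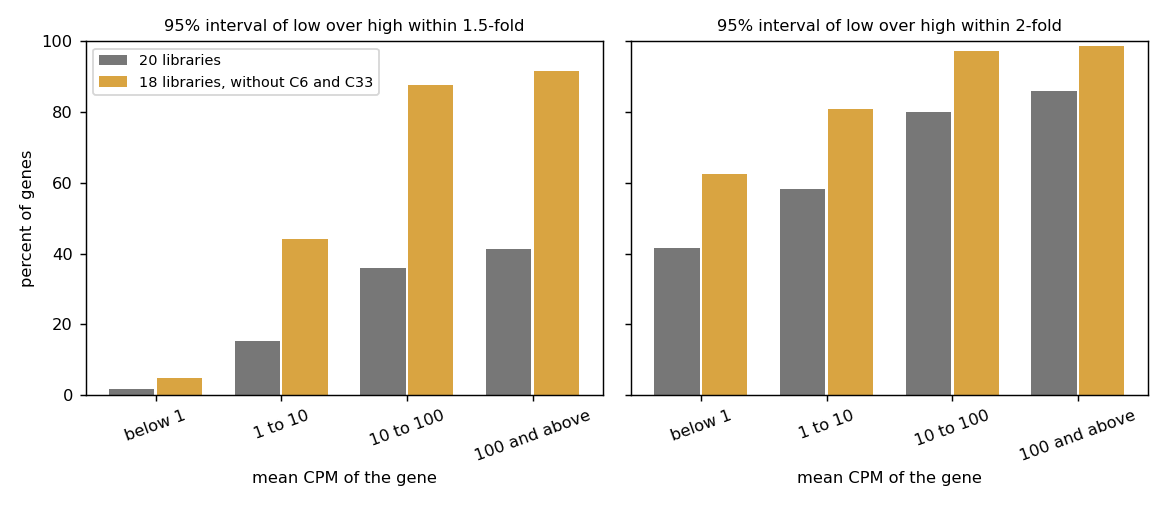
Percent of genes whose whole 95% interval of low over high lies within 1.5-fold (left) or 2-fold (right), by mean CPM of the gene. Grey bars are all 20 libraries and yellow bars leave out C6 and C33, a choice made after seeing the data. In the class of 100 CPM and above the share within 1.5-fold is 41.2% with all libraries and 91.5% without the pair.

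The 50 arcuate-enriched genes had a median interval reaching 0.64, and it lay within 1.5-fold for 6% and within 2-fold for 58%. By abundance, 31 of them had a mean of 100 CPM and above, with a median SD within planes of 0.74, where all genes of that class had 0.41. The other 19 were of 10 to 100 CPM, with a median SD of 0.84, where all genes of that class had 0.45. Without C6 and C33 the median SD was 0.58 for the 31 genes beside 0.22 for their class, and 0.60 for the 19 genes beside 0.25 for theirs. The share of the 50 within 2-fold was then 68%.

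The same values were taken over a wider group. Of genes with a mean of 10 CPM or more, 1190 were at least 4-fold higher in ARC than in pituitary, and 9166 were within 4-fold. The median SD was 0.60 in the former and 0.43 in the latter, and the share of intervals within 2-fold was 68.3% and 83.1%. Without C6 and C33 the SDs were 0.38 and 0.23, and the shares 91.3% and 98.6%. The 83 genes of 10 to 100 CPM at least 4-fold higher in pituitary had a median SD of 0.62 and 61.4% within 2-fold, beside 0.44 and 81.9% for the 7534 genes of that abundance within 4-fold. Without C6 and C33 the shares were 75.9% and 98.3%. These shares are a description, and the differences between the gene groups were not tested.

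By plane, the arcuate-enriched genes did not pass the test. Of the 50, all tested, 0 had a p below 0.05 and were higher on the low plane, where 8.2% of all genes were, and 4 were lower, or 8%, where 1.72% of all genes were. The estimates were negative for 34 and positive for 16, with a median of -0.14 and a range of -0.84 to 0.51 on the log2 scale, and the median over all genes was -0.01. With C8 left out 1 was lower and 1 higher with a p below 0.05, where 238 and 1357 of 14793 genes were. With C6 and C33 left out 2 were lower and 1 higher, where 309 and 266 of 14874 genes were. With C6, C8, C22, C33 and C44 left out 6 were lower and 0 higher, where 306 and 215 of 14825 genes were. ENSBTAG00000022890 ran from 2550 to 16500 CPM on the high plane (median 9330) and from 1460 to 11300 CPM on the low plane (median 5100), with a log2 fold change of -0.67 (SE 0.34, FDR 0.48). Its lowest libraries were C22 on the high plane and C33 on the low plane, and the planes overlapped.

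The arcuate-enriched gene with the smallest p, rank 9 in the set by ratio, ran from 223 to 429 CPM on the high plane (median 348) and from 201 to 312 CPM on the low plane (median 262). Its log2 fold change was -0.43 (SE 0.12, FDR 0.48), and it was -0.43 without the 5 libraries named above. A further gene of nearly the same tissue pattern, rank 5 by p among those lower, ran from 85.8 to 208 CPM on the high plane (median 124) and from 23.4 to 110 CPM on the low plane (median 69.8). It had a log2 fold change of -1.02, and -0.83 without the 5 libraries. In both, all 10 low plane libraries lay below the high plane median. Below every high plane library were 1 of 10 in the first gene and 7 of 10 in the second. Both genes were picked by p, and such counts were not taken over all genes. Neither passed the FDR.

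Of the pituitary-enriched genes 12 of 50 passed the filter and of the testes-enriched genes 11 of 50, so that these describe only the members with reads in enough libraries. Of the 12, 3 were higher with a p below 0.05, or 25%, where 8.2% of all genes were, and the median log2 fold change was 0.97. Without C8 the median was 0.18 and 0 were higher with a p below 0.05, and without C8 and C44 they were 0.47 and 0. Without C6, C8, C22, C33 and C44 the median was 0.73 and the estimates were positive for 11 of the 12. Of the 12, 1 was then higher with a p below 0.05, where 215 of all 14825 genes were. The gene with rank 3 by ratio ran from 0 to 18.5 CPM on the high plane, and on the low plane from 3.92 to 44.3 CPM apart from C8 at 1290 CPM. Its log2 fold change was 4.20 (SE 0.98, FDR 0.48) with C8 and 0.96 without it.

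Of the 11 testes-enriched genes, 9 were lower on the low plane with a p below 0.05, where 1.72% of all genes were, and C44 was the highest library for all 11. Their median log2 fold change was -2.64, and it was -0.26 over the 10 that could be fitted without C44, where 0 were lower with a p below 0.05. Without the 5 libraries the median was 0.32 over all 11, again with 0 lower at a p below 0.05. Among all 254 genes leaning lower on the low plane, C44 was the highest library for 97, or 38.2%, against 8.61% of all genes tested. C60 of the high plane was the highest for 31.5%, against 6.19% of all genes. C6 and C33 were the 2 lowest libraries for 119 of the 254, or 46.9%, against 34.6% of all genes. With C6 and C33 left out, 162 of the 254 were still lower with a p below 0.05. At least 4-fold higher in testes than in ARC were 36.2% of the 254, against 6.88% of all genes. The share was 42 of 45 among those lower by more than 1 on the log2 scale.

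The few genes leaning most with diet were taken as the 12 with the smallest p in each direction. In none of the 24 did the planes separate fully. Neither full nor partial separation was counted over all genes tested, and little overlap follows from picking genes by p. Of the 12 higher on the low plane, log2 fold changes ran from 0.63 to 4.20, and C6 and C33 were the 2 highest libraries for 5. All 12 kept their direction and a p below 0.05 without C6 and C33, and 10 did without the 5 libraries. Of all 1210 genes leaning higher, 176 and 129 did so in these fits. The 12 were picked by p in libraries that these fits share, so their staying is given as a description.

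ENSBTAG00000018948 had the smallest p among genes higher on the low plane. It ran from 43.6 to 77.9 CPM on the high plane (median 59.6) and from 49.2 to 180 CPM on the low plane (median 107). Of the low plane libraries 8 of 10 lay above every high plane library, and the exceptions were C8 and C6. This count describes a gene picked by p and has no share over all genes beside it. The log2 fold change was 0.81 (SE 0.18, quasi-likelihood p = 2.17e-04, FDR 0.48), or 1.75-fold. Its highest library was C13, not C6 or C33, and the change was 0.87 without C6 and C33 and 0.94 without the 5 libraries, where the FDR was 0.12. It was also expressed in pituitary, at a median of 39.9 CPM, and in testes, at 42.4 CPM, beside 70.1 CPM in ARC.

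ENSBTAG00000021102 ran from 22.5 to 37 CPM on the high plane (median 28.9) and from 22.9 to 79.9 CPM on the low plane (median 44). Here too 8 of 10 low plane libraries lay above every library of the high plane, in a gene likewise picked by p. The log2 fold change was 0.70 (SE 0.17, p = 4.78e-04, FDR 0.48). C6 and C33 were its highest libraries, and without them the change was 0.48.

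Of the 12 genes lower on the low plane, 10 were at least 4-fold higher in testes than in ARC. Of these, 3 were in the testes-enriched set. All 10 had C44 as their highest library. Without C44, 11 could be fitted, and 9 of them had a p below 0.05 in the same direction. Of all 254 genes leaning lower, 163 did so. Without the 5 libraries 9 of the 12 kept their direction, with a p below 0.05. The rest were then at 0.097, 0.186 and 0.505 on the log2 scale. These 12 too were picked by p in libraries that the fits share. The other 2 of the 12 were the ARC genes at -0.43 and -1.02 described above.

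ENSBTAG00000002444 had the smallest p of all genes tested. It ran from 2.81 to 14 CPM on the high plane (median 4.44) and from 0.81 to 3.12 CPM on the low plane (median 1.59). The highest value, 14 CPM, was C44, the next on the high plane was 7.21 CPM, and the planes overlapped at their edges, since C37 of the high plane had 2.81 CPM. The log2 fold change was -1.53 (SE 0.30, p = 4.78e-05, FDR 0.48), and it was -1.24 without C44 and -1.17 without the 5 libraries. This was the gene called by edgeR's exact test (FDR 0.017) and by DESeq2 (adjusted p 0.0099). Its median level was 65.2 CPM in testes, 14.6 CPM in pituitary and 3.11 CPM in ARC.

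ENSBTAG00000016746 ran from 0.63 to 1.83 CPM on the high plane (median 1.18) and from 0.12 to 0.93 CPM on the low plane (median 0.53). The highest value was again C44, and the planes overlapped. The log2 fold change was -1.19 (SE 0.29, p = 3.96e-04, FDR 0.48), and -1.08 without C44. Its median was 6.88 CPM in testes and 0.86 CPM in ARC.

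**Figure D5:**
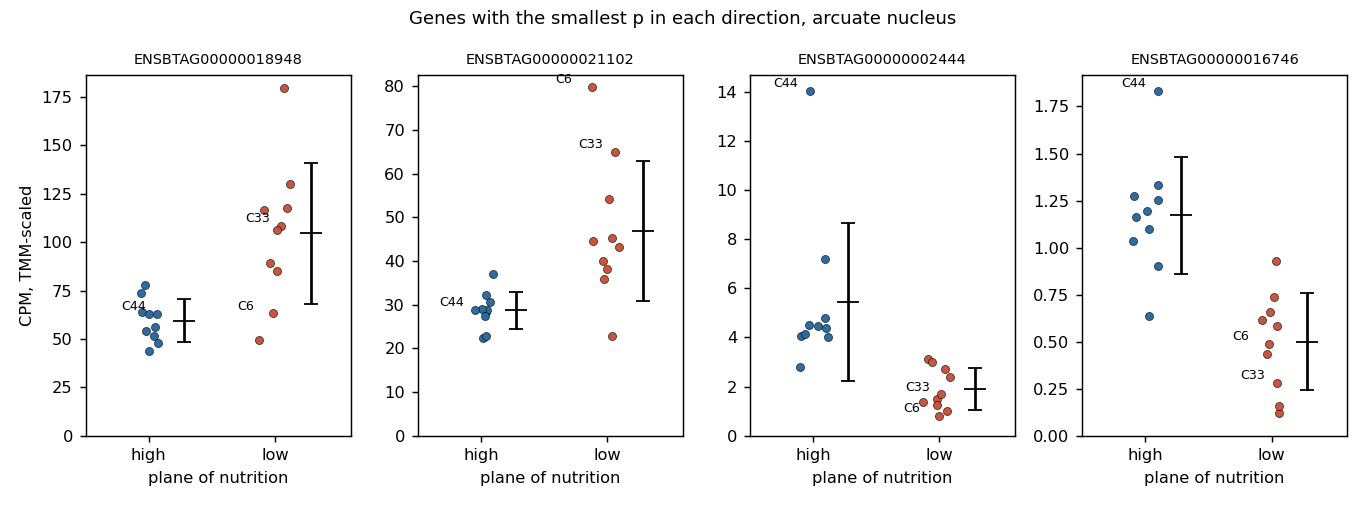
CPM after TMM scaling of 4 genes, the 2 with the smallest p in each direction, by plane of nutrition, with each axis starting at 0. Points are libraries (n = 10 per plane), and the bar beside them is the mean with its SD. In the genes higher on the low plane 8 of 10 low plane libraries lie above every high plane library, and in both genes lower on the low plane C44 is the highest library. The genes were picked by p, and such separation was not counted over all genes.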

How the data were processed

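The authors deposited, for each library, raw counts of reads on Ensembl genes (whole numbers without normalization). Libraries were single-end TruSeq mRNA. The submitters' processing notes name CASAVA 1.4, STAR, HTSeq and edgeR, and the genome build and annotation release are not given in the sources used here.

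The analysis used edgeR 4.0.16 in R 4.3.3. Genes were filtered with filterByExpr on diet and scaled by TMM. The quasi-likelihood test was run on 14757 genes, and its p-values were adjusted over all of them by Benjamini-Hochberg (FDR threshold 0.05). Intervals came from the fitted weights and moderated dispersion. Per-library CPM in the tissue sets used library totals, and gene values used TMM scaling. Sets needed a median of 10 CPM in their own tissue and used a pseudocount of 0.1 CPM. Log2 CPM used a prior count of 2. Alternatives were run with DESeq2 1.42.0, limma 3.58.1 and edgeR, and permutation tests with Python 3.11.15 and scipy 1.17.1. The library score is the mean log2 CPM of 200 genes with the largest slopes on scaling dimension 1 in pituitary and testes.

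The rule for named genes was the 12 with the smallest p in each direction, with at most 2 identifiers printed for each, and the 10 most enriched genes of each set. The members, sets and lists were chosen with earlier results of these data known. The 24 planned gene lists could not be applied, since 0 of 24616 identifiers matched the 37063 genes of the RefSeq table used (ARS-UCD2.0). No 2 libraries of a plane agreed within sampling noise (smallest chi-square per degree of freedom 2.72). This tells only that none was a repeat run of another library on its plane. Each was counted as 1 sample because the study describes 1 library per calf and tissue. Labels give no batch. Library totals ran from 898979 to 32009433 reads. Limma's quality weights were 0.028 for C6, 0.0539 for C33 and 1.55 for the shallowest library, C22. They are fitted on top of weights that already allow for read number. They therefore do not show whether depth orders the libraries by precision.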

Additional observations from a re-analysis of the deposited data

Results flagged for a closer look

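In 28 groups of 10 libraries (14 measures on each plane) 7 held a library far from the rest by Dixon's criterion. For independent normal values chance alone gives this in about 1 of 20 groups. The measures here are linked, some are skewed and some are genes picked by p, so that rate does not apply to them. Library C41 of the low plane had 27729419 reads, against 16556829 in the next library. Library C22 of the high plane had 14809 genes with a read and C6 of the low plane 15693, each the fewest of its plane. C22 lay at 2.99 on scaling dimension 2, the next high plane library at 0.42. C8 had 2295 CPM of pituitary-enriched genes (next 1216). C44 had 2942 CPM of testes-enriched genes (next 269.2). For ENSBTAG00000002444, C44 had 14.03 CPM (next 7.21). C6 and C33 were not marked on scaling dimension 1, because with 2 libraries far out neither has a large gap to its nearest neighbour.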

How the results depend on the processing

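No paired analysis was possible because the planes share no replicate numbers. The number of DEG, 0, was 1 with the exact test, 1 with DESeq2 and 123 in 1 fit over all 3 tissues, of which 29 were higher and 94 lower on the low plane. That fit treats all 57 libraries as independent, although the 3 tissues were taken from the same calves. C44 was the highest ARC library for 93 of those 94, and C8 for 21 of the 29. It was 0 in all 20 fits without 1 library. Genes higher on the low plane with a p below 0.05 numbered 408 to 1932 over those fits (lowest without C33, highest without C41), and lower ones 163 to 395 (without C60 and without C41). The share of genes with an interval within 2-fold was 67.9% to 88.4%. The number higher was 239 with the library score as covariate, 87 with the arcuate-enriched score, 1894 with the pituitary-enriched score and 286 with limma's voom and quality weights. Without C6 and C33, a choice made after seeing the data like the other omissions of several libraries, it was 266, and without C6, C8, C22, C33 and C44 it was 215. The number lower was 711 with no filter, 480 with voom, 541 in the fit over 3 tissues and 154 without C8 and C44. The share within 2-fold was 72.8% with RLE size factors, 52.6% with no filter, 90.2% for genes above 1 CPM in every library, 92.5% with the library score, 87.1% with the arcuate-enriched score, 68% with the pituitary-enriched score, 94.5% with voom, 59.9% in the fit over 3 tissues, 91.7% without C6 and C33, 69.2% without C8 and C44, and 92.6% without the 5 libraries. The last 3 are over the genes each fit kept. With 20 genes in place of 50, the pituitary-enriched genes of C8 had a median of 4.1% of the pituitary level in place of 14.7%. The 2 testes-enriched genes with the highest ratio turned to 0.19 and 0.50 on the log2 scale without the 5 libraries. The cause of these changes was not tested, other than that fits with fewer libraries or genes differ by construction. The difference between planes was also within the spread of the libraries on both scaling dimensions by the BCV distance or without C22. On dimension 1 these tests too rest largely on C6 and C33.

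C22's depth limits what it shows of genes with few reads, and genes below 1 CPM were the least precise.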
